A study of Mus musculus with 2 samples.

Results

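The 8 genes described here encode keratins of the mammary epithelium. Krt14, Krt17, Krt15 and Krt6a were taken as basal keratins, and Krt8, Krt18, Krt19 and Krt7 as luminal keratins, which is their usual assignment. They are 8 of 21911 protein-coding genes of the annotation. The members were chosen by name, and their regions were all peaks of either library that overlapped the gene body or lay within 10 kb of an annotated transcription start site (TSS). This gave 59 of 275294 merged regions, of which 54 had a peak in both libraries and are called shared. A peak was present only in the DOX library for 2 regions and only in the EtOH library for 3.

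Chromatin accessibility was measured by single-cell ATAC-seq, in which a transposase cuts open chromatin of single nuclei, in mammary gland organoids from C57BL/6J mice. Both groups carried the genotype shTRPS1.34 ki/+; CAG-rtTA3 tg/+, in which the CAG promoter drives the activator rtTA3 and doxycycline turns on an shRNA against Trps1, the gene of a GATA-type zinc finger repressor. The DOX group received 0.1 µg/ml doxycycline and the EtOH group received ethanol, the solvent, for 7 days. The design text gives 4 mice, while the study's methods name fewer and state that their cells were pooled for each library. Each group had 1 library, and no control with doxycycline but without the shRNA was analysed here, so the effects of the drug and of the shRNA cannot be told apart. With 1 library in a group, replicate error is unknown and no test is given. Each interval is at the 95% level and reflects counting error alone.

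Keratins are the intermediate filament proteins of epithelial cells. A filament is built from pairs of a type I keratin (here Krt14, Krt15, Krt17, Krt18 and Krt19) and a type II keratin (here Krt6a, Krt7 and Krt8). In the mammary gland, Krt8 with Krt18 is the standard marker pair of the luminal layer and Krt14 is a standard marker of the basal, myoepithelial layer, while Krt6a has been used as a marker of some luminal progenitor cells and Krt17 is linked to stress and wound responses. The type II genes and Krt18 lie together on chromosome 15, and the other type I genes lie on chromosome 11.

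The DOX library held 3071 nuclei with 224762118 counts and the EtOH library 3104 nuclei with 211963715 counts, at medians of 75195 and 66701 counts per nucleus on assembled chromosomes. The keratin windows took 66678 and 88678 of these counts. Nuclei were clustered on regions outside the windows of all keratin genes, so that keratin accessibility was not used to form the 8 clusters. Most EtOH nuclei (1630) but only 57 DOX nuclei fell into the luminal progenitor-like cluster 1, and 1381 DOX nuclei but only 7 EtOH nuclei fell into cluster 2, which stayed unnamed. In cluster 1 the median log2 fold of the luminal progenitor list was 0.50, with Csn3 (1.803) and Kit (1.655) highest. Cd14 (-0.283) and Ltf (-0.115) were below the level of the other nuclei. The 10 genes that led cluster 1 by fold held none of that list, so its name rests on the list's median alone and is provisional. A cluster that is mostly 1 library may be that library and not a cell type. Clusters 4 and 5 held 223 DOX and 1026 EtOH nuclei. In both clusters all 8 hormone-sensing luminal markers were above the level of the other nuclei (in cluster 5 Foxa1 by a log2 fold of 1.30 and Esr1, the estrogen receptor gene, by 1.24). The 10 genes that led these clusters by fold held none of those markers but held genes of stratified epithelia, Lce1k in both, Dsg1c in cluster 4, and Klk6, Klk7, Tmprss11f and Krt13 in cluster 5, so both stayed unnamed. The hormone-sensing luminal list had medians of 0.53 in cluster 4 and 0.73 in cluster 5, above the 0.50 of cluster 1 for its list. The name of cluster 1 is therefore no better founded than names for clusters 4 and 5 would have been. Cluster 7, unnamed because basal and fibroblast markers were both high in it, held 83 DOX and 136 EtOH nuclei. Immune-like nuclei made up 41.6% of DOX (39.9 to 43.4%) and 9.09% of EtOH (8.10 to 10.2%). The summed accessibility of 6 immune markers was 325 CPM in DOX and 154 CPM in EtOH, and each of the 6 was higher in DOX. On the CPM scale used here, a library's total over shared regions is fixed, so values are shares of that total per 1000000 counts. Since immune-like nuclei had little keratin accessibility, each comparison is given over all nuclei and outside the immune-like clusters. The libraries had 23 cell barcodes in common.

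The sequences of 4 windows of 300 bases are shown because they lie in keratin regions described below that were at least 2-fold higher (the first 3) or lower (the last) in DOX outside the immune-like clusters. They were read from GRCm38 5′ to 3′ on the strand of the gene. Capitals mark matches, on either strand, to the AP-1 letters TGANTCA, the letters GATAA of GATA factors, the ETS letters GGAAG, the letters TATAAA of the promoter box of that name, or the grainyhead letters AACNNGTT. The first window ends 1 base before the TSS of Krt14 (chr11:100207549-100207848). The others are the centres of a region 5.8 kb upstream of Krt6a (chr15:101699944-101700243), of a region 2.6 kb upstream of Krt18 (chr15:102025429-102025728), and of a region in an intron of Krt7 (chr15:101426368-101426667).
Krt14 upstream, minus strand: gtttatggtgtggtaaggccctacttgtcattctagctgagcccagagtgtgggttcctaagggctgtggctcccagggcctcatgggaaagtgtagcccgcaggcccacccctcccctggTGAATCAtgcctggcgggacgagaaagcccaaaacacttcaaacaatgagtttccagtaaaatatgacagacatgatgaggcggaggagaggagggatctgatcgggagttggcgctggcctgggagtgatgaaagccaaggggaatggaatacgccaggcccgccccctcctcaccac
Krt6a distal, minus strand: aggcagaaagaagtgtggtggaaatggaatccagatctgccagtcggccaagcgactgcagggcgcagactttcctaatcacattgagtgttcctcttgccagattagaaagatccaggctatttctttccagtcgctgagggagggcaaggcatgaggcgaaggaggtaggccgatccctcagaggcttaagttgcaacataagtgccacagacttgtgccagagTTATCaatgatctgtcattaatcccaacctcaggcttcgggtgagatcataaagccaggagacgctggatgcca
Krt18 distal, plus strand: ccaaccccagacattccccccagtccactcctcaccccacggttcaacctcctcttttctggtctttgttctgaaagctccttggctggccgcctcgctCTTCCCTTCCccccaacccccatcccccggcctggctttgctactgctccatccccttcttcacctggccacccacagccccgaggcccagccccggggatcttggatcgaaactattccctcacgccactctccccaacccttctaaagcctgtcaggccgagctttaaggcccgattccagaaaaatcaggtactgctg
Krt7 intron, plus strand: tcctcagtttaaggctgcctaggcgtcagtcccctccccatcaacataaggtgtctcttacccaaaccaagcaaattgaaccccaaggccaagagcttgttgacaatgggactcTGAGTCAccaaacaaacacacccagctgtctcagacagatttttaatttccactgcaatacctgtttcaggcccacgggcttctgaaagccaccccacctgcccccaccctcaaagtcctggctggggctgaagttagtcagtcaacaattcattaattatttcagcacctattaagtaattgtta

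The AP-1 letters stood once upstream of Krt14 and once in the Krt7 intron, and the GATA letters once in the distal Krt6a window. Upstream windows of the same length held the AP-1 letters in 7.16% and the GATA letters in 25.8% of the 21911 genes. Centres of shared regions held them in 20.9% and 28.3% of 174940 regions. Among the centres of the 54 shared keratin regions, 16 (29.6%) held the AP-1 letters and 12 (22.2%) the GATA letters. The ETS letters, found in 2 places in the Krt18 window, are common and were in 71.2% of all centres. The promoter box and the grainyhead letters matched in none of the 4 windows, and 13.0% and 5.98% of all centres held them. A match is a description of the sequence and not a bound site.

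Over all nuclei, the luminal keratins were less accessible in DOX than in EtOH. Of the basal keratins 3 were lower beyond the counting interval, by unequal amounts, and 1 was within it. Krt7 had 24.3 CPM in DOX and 48.3 CPM in EtOH, a log2 ratio of -0.99 (-1.06 to -0.92). Krt19, which encodes the smallest type I keratin, had 54.2 and 107 CPM (log2 ratio -0.98, -1.02 to -0.93). The common luminal pair was closer to equal. Krt8 had 66.3 and 89.2 CPM (log2 ratio -0.43, -0.47 to -0.38). Krt18, its filament partner, had 63.2 and 74.4 CPM (log2 ratio -0.24, -0.28 to -0.19). All 4 luminal keratins were thus lower in DOX beyond the counting interval, with a median log2 ratio of -0.70.

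Among the basal keratins, Krt14 had 47.9 CPM in DOX and 50.7 CPM in EtOH, a log2 ratio of -0.08 (-0.14 to -0.03). Krt17 had 17.0 and 16.2 CPM, and its log2 ratio of 0.07 had an interval that held 0 (-0.03 to 0.17). Both were close to equal in the libraries. Krt6a had 34 and 46.9 CPM (log2 ratio -0.47, -0.53 to -0.40). Krt15 had 29 and 56.6 CPM (log2 ratio -0.97, -1.03 to -0.90). Krt15 shares 5 of its 6 shared regions with the window of Krt19, so its value rests mostly on regions also counted for its luminal neighbour. On the regions nearest to its own TSS alone, Krt15 was lower too, at -1.12 (-1.25 to -0.995). The median of the 4 basal keratins was -0.27.

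In all, 7 of the 8 keratins were lower beyond the counting interval, 0 were higher and 1 was within it. Of 18750 gene windows with counts, 33.2% were lower and 47.8% higher in DOX by the same rule, and the median of all of them was 0.05. None of the 8 keratins was 2-fold apart, as were 2.82% of all windows upward and 1.44% downward. With all nuclei summed, fewer nuclei of a type and less accessibility per nucleus cannot be told apart.

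**Figure D1:**
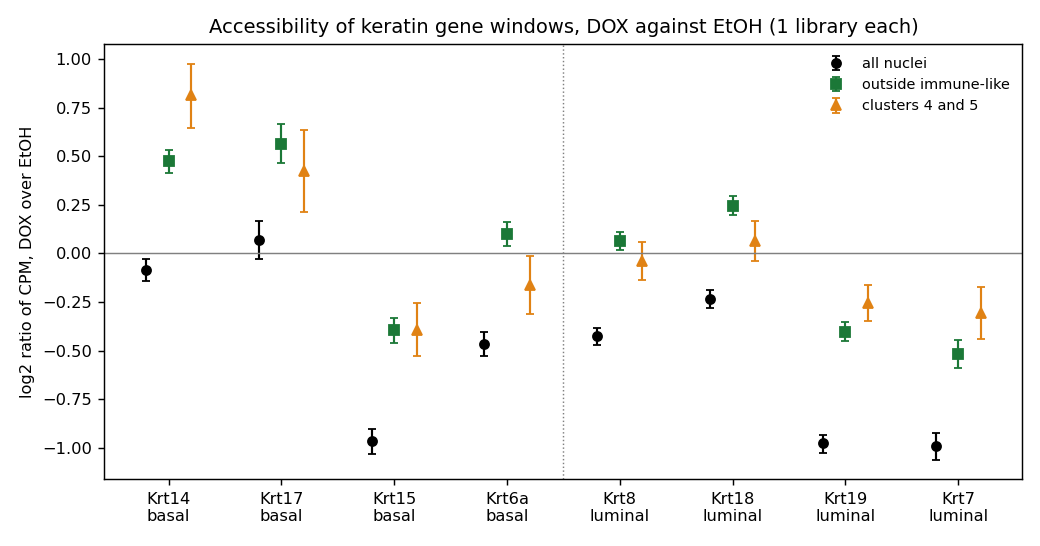
Log2 ratio of CPM, DOX over EtOH, of the 8 keratin gene windows over all nuclei (black), outside the immune-like clusters (green) and in clusters 4 and 5 (orange); bars are 95% counting intervals and each group has 1 library. Krt14 moves from -0.08 over all nuclei to 0.47 outside the immune-like clusters and 0.82 in nuclei of clusters 4 and 5, while Krt7, Krt19 and Krt15 stay below 0 in all 3.

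Outside the immune-like clusters, with 1792 DOX and 2822 EtOH nuclei, 5 keratins were higher in DOX and 3 were lower. Krt14 had 75.5 CPM in DOX and 54.4 CPM in EtOH, a log2 ratio of 0.47 (0.42 to 0.53). Krt17 had 25.5 and 17.2 CPM (log2 ratio 0.56, 0.46 to 0.66). These were the highest ratios of the 8 genes. Krt6a was at 0.10 (0.04 to 0.16), so 3 of 4 basal keratins were higher, and Krt15 was at -0.39 (-0.46 to -0.33). The luminal keratins parted. Krt18 was higher at 93.9 against 79.3 CPM (log2 ratio 0.24, 0.20 to 0.29), and Krt8 was higher by little, at 99.2 against 94.8 CPM (log2 ratio 0.07, 0.02 to 0.11). Krt19 was lower at 86.7 against 114 CPM (log2 ratio -0.40, -0.45 to -0.36), and Krt7 at 36.1 against 51.6 CPM (log2 ratio -0.52, -0.59 to -0.44). The median log2 ratio was 0.29 for the basal and -0.17 for the luminal keratins. By the same rule 26.4% of all windows were higher and 30.0% lower, and their median was -0.01. These sums still mix clusters that the libraries filled unequally.

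In clusters 4 and 5, where both libraries had more than 200 nuclei, Krt14 had 49.2 CPM in DOX and 28.0 CPM in EtOH, a log2 ratio of 0.82 (0.65 to 0.98). Krt17 was also higher, at 27.5 against 20.5 CPM (log2 ratio 0.43, 0.21 to 0.64). Krt15 was lower at 59.5 against 78.1 CPM (log2 ratio -0.39, -0.53 to -0.26), as was Krt6a at 50.6 against 56.6 CPM (log2 ratio -0.16, -0.31 to -0.01). Thus 2 basal keratins were higher and 2 were lower. Of the luminal keratins, Krt7 (log2 ratio -0.31, -0.44 to -0.17) and Krt19 (log2 ratio -0.25, -0.35 to -0.16) were lower. Krt8 had 115 and 118 CPM and Krt18 108 and 103 CPM, and both intervals held 0. Among all windows 16.1% were higher and 12.9% lower in these nuclei.

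These values depended on the clustering. At a Leiden resolution of 1 the clusters with the same leading marker list held 136 DOX and 1024 EtOH nuclei, and 1 of them held 119 EtOH nuclei and 0 DOX nuclei, so the nuclei of the libraries were not matched within the set. Krt14 was then at 0.38 (0.15 to 0.59), Krt17 at 0.37 (0.12 to 0.64), Krt18 at 0.24 (0.13 to 0.36) and Krt7 at -0.23 (-0.39 to -0.07). The intervals of Krt15, Krt6a, Krt8 and Krt19 held 0.

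Krt14 was given for each of the clusters too. In cluster 4 (128 DOX and 522 EtOH nuclei) Krt14 had 65.2 and 33.0 CPM, a log2 ratio of 0.98 (0.79 to 1.17). In cluster 5 (95 and 504 nuclei) it had 27.0 and 22.1 CPM, and the interval of its log2 ratio of 0.29 held 0 (-0.05 to 0.61). Krt17 was at 0.60 (0.33 to 0.86) in cluster 4 and 0.11 (-0.28 to 0.45) in cluster 5. At resolution 1, 87 of the 128 DOX nuclei of cluster 4 but only 4 of its EtOH nuclei left the set. For the 41 DOX and 518 EtOH nuclei that stayed, Krt14 was at 0.71 (0.39 to 1.01), an interval that overlapped that of cluster 5.

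In cluster 7, where Krt14, Krt17 and Krt6a were highest and 7 of 8 basal markers were above the level of the other nuclei (Trp63, the gene of the basal regulator p63, by a log2 fold of 1.30), the keratins differed little between the libraries. Krt14 had 143 CPM in DOX and 142 CPM in EtOH, a log2 ratio of 0.01 (-0.16 to 0.18). Krt6a had 89.8 and 86.2 CPM, and Krt17 53.2 and 57.7 CPM, and both intervals held 0. Only Krt18 was beyond its interval, at 46.9 against 28.2 CPM (log2 ratio 0.74, 0.40 to 1.07). In the luminal progenitor-like cluster the 57 DOX nuclei gave wide intervals. Krt14 was lower there, at 43.1 against 64.8 CPM (log2 ratio -0.59, -0.94 to -0.26), and Krt19 was lower too (log2 ratio -0.37, -0.65 to -0.12). Krt8 (log2 ratio 0.30, 0.07 to 0.52) and Krt7 (log2 ratio 0.37, 0.03 to 0.70) were higher, and the other 4 keratins had intervals that held 0. The share of all gene windows beyond the interval was not computed in cluster 7 or in the luminal progenitor-like cluster. These calls therefore have no background to be set against.

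Levels per length, in CPM per kb of shared region, allow genes to be ranked within a cluster. In cluster 7 the order was Krt14 (17.7 in DOX and 17.5 in EtOH), Krt6a (15.6 and 15), Krt8 (10.7 and 11.6) and Krt17 (8.65 and 9.39), and the other 4 keratins lay at 3.76 to 6.81. The intervals of Krt14 and Krt6a overlapped in DOX (16.1 to 19.3 and 14.0 to 17.5) and in EtOH (16.2 to 18.8 and 13.7 to 16.5). In every other group of at least 50 nuclei Krt8 stood first. In the EtOH luminal progenitor-like nuclei Krt8 was at 14.5 CPM per kb, followed by Krt19 (9.75, 9.47 to 10.0) and Krt18 (9.52, 9.20 to 9.84), whose intervals overlapped, and Krt17 was last at 1.76. In cluster 2, made of DOX nuclei, Krt8 (18.0) and Krt18 (13.7) led and Krt14 came next at 9.52 (9.22 to 9.83), with Krt6a at 9.17 (8.82 to 9.52). Krt17 was last there at 3.89.

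Among groups of at least 50 nuclei, the 4 luminal keratins were highest in cluster 5. In EtOH cluster 5, Krt8 was at 22.1, Krt19 at 18.6, Krt18 at 16.5 and Krt7 at 13.1 CPM per kb, while Krt14 was at 2.72. Krt15 was at 15.5 in that group and at 3.76 to 4.39 in cluster 7, values that rest on the regions it shares with Krt19. Its 1 region of its own had 2.48 CPM in EtOH luminal progenitor-like nuclei and 1.35 CPM in EtOH nuclei of clusters 4 and 5. In immune-like nuclei the 8 keratins lay at 0.22 to 4.01 CPM per kb, with Krt8 and Krt18 first and second. The Krt8 region most open in these nuclei, in an intron 1.41 kb from the TSS, had 8.53 CPM in DOX and 8.7 CPM in EtOH. Immune-like nuclei gave 24.7% of the DOX counts of that region. Between its lowest and its highest group Krt19 changed 84.5-fold, Krt14 73.8-fold and Krt15 63.0-fold, against 10.2-fold for Krt8, which kept the highest level in immune-like nuclei. The lowest group of Krt19, Krt14 and Krt15 was EtOH cluster 3, with only 20, 19 and 14 counts. Their levels there had overlapping intervals (0.105 to 0.404, 0.121 to 0.464 and 0.099 to 0.507), so these folds are rough and do not rank the 3 genes.

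**Figure D2:**
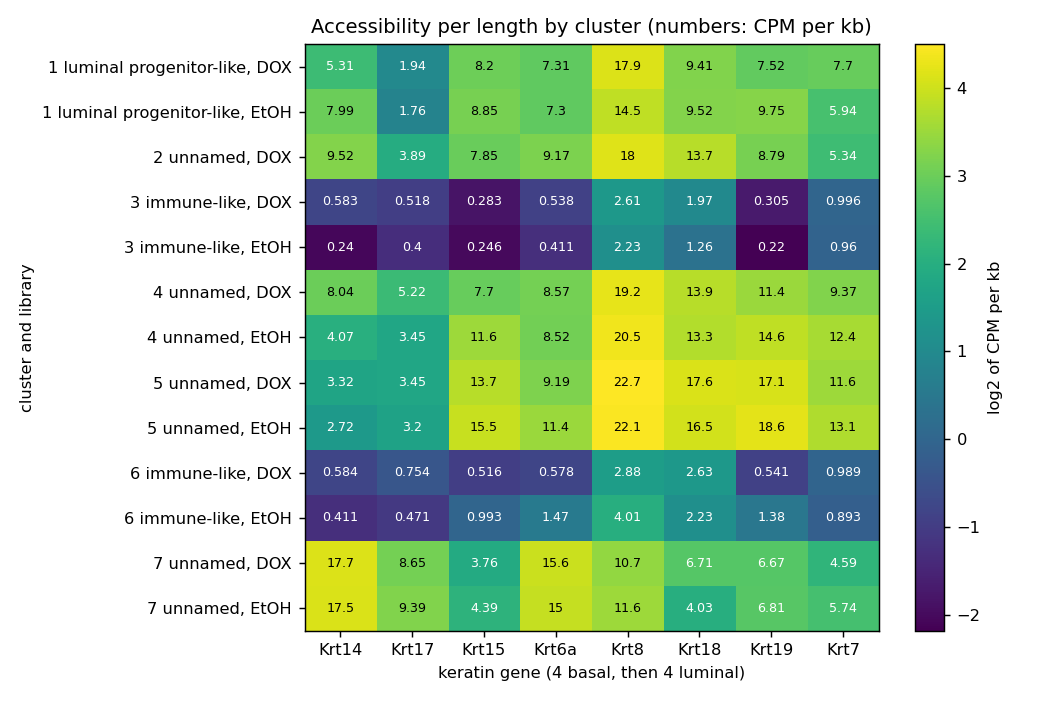
Accessibility per length (CPM per kb of shared region, numbers in the cells; colour on a log2 scale) of the 8 keratins in the 13 groups of nuclei of 1 cluster and 1 library with at least 50 nuclei. The 2 rows of cluster 7 have Krt14 highest at 17.7 and 17.5, the rows of clusters 4 and 5 have Krt8 highest at 19.2 to 22.7, and the rows of the immune-like clusters lie at 0.22 to 4.01.

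Genes whose log2(CPM + 1) followed the keratins most closely over these 13 groups were named by rank. The mean of the basal keratins was followed by Tcf7l1 and Ehd2 (Pearson r = 0.996), Lce1m and Dlc1 (0.995) and Dsp (0.994), the gene of the desmosomal plakin that tethers keratin filaments. The mean of the luminal keratins was followed by Rhbdl2, Ccn5 and Notch3 (0.994) and by Mpig6b and Ly6g6c (0.993). The groups share libraries, and the immune-like groups are low for all epithelial genes, so such values are high for many genes.

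Within the keratin windows the regions differed in their ratios. Over all nuclei every shared region of Krt7, Krt8, Krt15 and Krt19 had fewer CPM in DOX. The windows of Krt14, Krt17, Krt6a and Krt18 held both higher and lower regions. Over all nuclei 12 of the 54 shared regions (22.2%) were at least 2-fold lower and 1 (1.85%) at least 2-fold higher in DOX, where 13.4% and 13.0% of 174772 shared regions were. Without the immune-like clusters 6 (11.1%) were lower and 5 (9.26%) higher, where 8.57% and 5.36% of all were. In 49 of the 54 regions the peaks of the libraries overlapped over at least 75% of the merged width. Counting those 49 alone, 9 were lower and 1 higher over all nuclei, where 13.2% and 12.5% of all such regions were. Outside the immune-like clusters 3 were lower and 5 higher, where 7.26% and 5.24% of all were.

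Krt6a held both the lowest and the highest ratio. The region over its TSS (chromosome 15, 101694004 to 101695102) had 287 counts in DOX and 1572 in EtOH, a log2 ratio of -2.54 (-2.80 to -2.27), and of -2.02 (-2.30 to -1.76) outside the immune-like clusters. The peaks of the libraries overlapped over 66.1% of this region, and it reaches into the first exon. Krt6b is a close paralog of Krt6a, and how reads matching both genes were treated is not given in the sources used here, so values inside exons of Krt6a are uncertain. By cluster this region was open in nuclei of clusters 4 and 5, at 19.3 CPM in EtOH and 11 CPM in DOX (log2 ratio -0.81, -1.13 to -0.51; at resolution 1 it was -0.32 and the interval held 0), and nearly closed in EtOH luminal progenitor-like nuclei (0.551 CPM) and in cluster 2 of DOX (0.586 CPM). In cluster 7 it had 2.38 CPM in DOX and 8.55 CPM in EtOH (log2 ratio -1.84, -3.14 to -0.74).

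The region 5.8 kb upstream of Krt6a (101699606 to 101700583) went the other way. It had 913 counts in DOX and 353 in EtOH, a log2 ratio of 1.29 (1.04 to 1.55), and of 1.89 (1.63 to 2.15) outside the immune-like clusters. Here 83.5% of the width lay under both peaks. It was most open in cluster 7, at 18.8 CPM in DOX and 9.55 CPM in EtOH (log2 ratio 0.97, 0.41 to 1.55), had 7.01 CPM in cluster 2 of DOX, and 1.01 CPM in EtOH luminal progenitor-like nuclei. In nuclei of clusters 4 and 5 it had 3.23 and 2.04 CPM, with an interval that held 0. The region 3.3 kb upstream had the most counts of the Krt6a window (3290 and 3858) and a log2 ratio of 0.26 outside the immune-like clusters. The sum over the window, at 0.10, therefore joined regions with opposite signs.

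At Krt14 the region over the upstream TSS (chromosome 11, 100207201 to 100208106) had 1740 counts in DOX and 1054 in EtOH. Its log2 ratio was 0.64 (0.48 to 0.80) over all nuclei, 1.22 (1.07 to 1.38) outside the immune-like clusters and 1.68 (1.29 to 2.08) in nuclei of clusters 4 and 5, where it had 11 CPM in DOX and 3.42 CPM in EtOH. At resolution 1 this last value was 0.93 (0.35 to 1.48). In luminal progenitor-like nuclei the region went the other way, with 0.583 CPM in DOX and 4.21 CPM in EtOH (log2 ratio -2.86, -8.16 to -0.36). This ratio rests on very few DOX counts, as the whole Krt14 window had 148 in those nuclei. Cluster 7 had 41.1 and 36.5 CPM in the region over the upstream TSS, and its interval held 0. The promoter region with the most counts, with its centre 0.76 kb downstream of the second, internal annotated TSS, differed from it. It had 2058 and 2374 counts, a log2 ratio of -0.29 (-0.41 to -0.17), and its level was 20.1 CPM in luminal progenitor-like nuclei of both libraries and 17.8 CPM in cluster 2 of DOX, against 11.6 CPM in cluster 7 of DOX. Between these 2 regions a peak was called in DOX alone, over the second annotated TSS, with 795 counts. A region with a peak in 1 library has no deposited count in the other, which is not a count of 0.

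**Figure D3:**
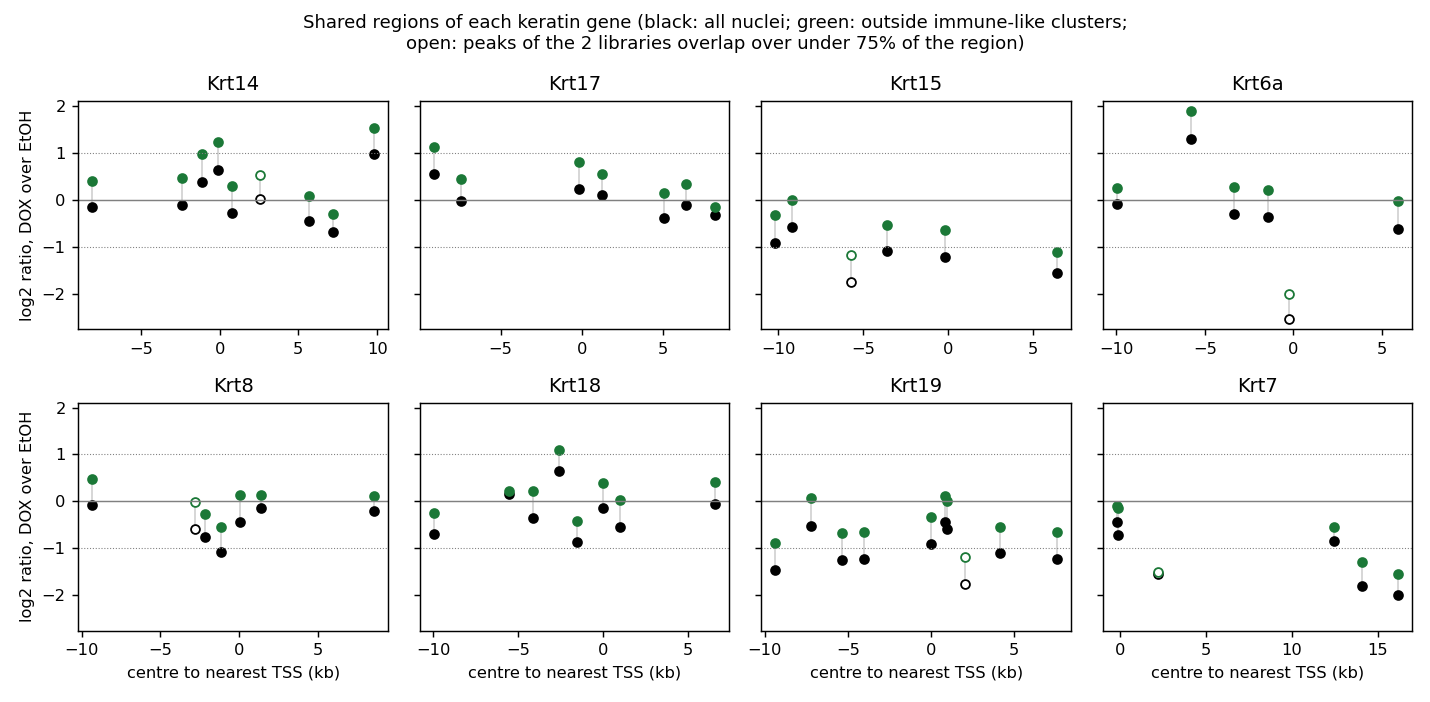
Log2 ratio (DOX over EtOH) of each shared region against the distance of its centre from the nearest TSS of the gene in kb, for all nuclei (black) and outside the immune-like clusters (green); open symbols are regions in which the peaks overlap over under 75% of the width, and dotted lines mark a 2-fold difference. The Krt6a panel spans from -2.54 at the TSS to 1.29 at 5.8 kb upstream over all nuclei, and the Krt14 region at its TSS rises from 0.64 to 1.22 without immune-like nuclei.

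At Krt18 the region 2.6 kb upstream (102025080 to 102026079) had 2991 counts in DOX and 1805 in EtOH, a log2 ratio of 0.65 (0.53 to 0.77) and of 1.10 (0.98 to 1.23) outside the immune-like clusters. It was also higher in nuclei of clusters 4 and 5 (17.6 against 11.8 CPM; log2 ratio 0.58, 0.31 to 0.85) and in cluster 7 (9.08 against 2.98 CPM; log2 ratio 1.61, 0.64 to 2.58). In the luminal progenitor-like cluster it had 8.74 and 8.46 CPM. Immune-like nuclei gave 11.6% of its DOX counts. The Krt18 promoter region had 3057 and 3205 counts and a log2 ratio of -0.15 (-0.25 to -0.05).

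At Krt7 the promoter was close to equal outside the immune-like clusters (2748 and 4285 counts over all nuclei, log2 ratio -0.72 over all nuclei and -0.14 outside), while regions inside the gene were lower. An intronic region 14.1 kb from the nearest Krt7 TSS, though nearer to a TSS of Krt87 (101426074 to 101426962), had 486 and 1595 counts, a log2 ratio of -1.80 (-2.01 to -1.59) and of -1.29 (-1.51 to -1.07) outside the immune-like clusters. It was open mainly in nuclei of clusters 4 and 5, at 17.2 CPM in DOX and 19.5 CPM in EtOH, where its interval held 0, against 1.12 CPM in EtOH luminal progenitor-like nuclei. The exonic region 16.2 kb from the nearest Krt7 TSS, also nearer to Krt87 (281 and 1050 counts, log2 ratio -1.98, -2.27 to -1.72), was lower within those nuclei too, at 6.96 against 12.5 CPM (log2 ratio -0.84, -1.24 to -0.45). A region near the gene's start had a log2 ratio of -1.55, but only 7.5% of it lay under both peaks, so its counts come from nearly separate stretches.

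At Krt19 and Krt15 the 2-fold lower regions were spread over the windows. The most extreme, shared by both windows (475 and 1522 counts, log2 ratio -1.76), held 1 DOX peak and 2 EtOH peaks that overlapped over 38.2% of the width. A region downstream of Krt15, though nearer to a TSS of Krt13, had 130 and 363 counts (log2 ratio -1.56, -2.0 to -1.15). The outermost upstream region of Krt19 had 976 and 2542 counts (log2 ratio -1.46, -1.62 to -1.31), and within nuclei of clusters 4 and 5 24.7 and 26.3 CPM. Others were at -1.25 and -1.23 upstream of Krt19, at -1.22 over the Krt15 TSS (319 and 703 counts) and at -1.09 between the genes. The Krt19 promoter region with the most counts was at -0.58 over all nuclei and at 0.00 outside the immune-like clusters. The region over the Krt19 TSS (1897 and 3380 counts) was at -0.92 and -0.34, and within nuclei of clusters 4 and 5 at -0.48 (-0.71 to -0.27), but at -0.07 with an interval that held 0 at resolution 1.

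Krt8 had 1 region at least 2-fold lower, 1.1 kb upstream of its TSS, with 1475 and 2944 counts (log2 ratio -1.08, -1.21 to -0.95). Outside the immune-like clusters it was at -0.54, and in nuclei of clusters 4 and 5 it had 21.1 and 27.3 CPM. The Krt8 promoter region had 3657 and 4697 counts (log2 ratio -0.44, and 0.13 outside the immune-like clusters). At Krt17 the promoter region had 1242 and 1001 counts (log2 ratio 0.23, 0.06 to 0.40, and 0.79 outside). A region about 9 kb upstream of Krt17, though nearer to a TSS of Krt42, reached 1.12 outside the immune-like clusters, with 575 and 370 counts in all. A region downstream of Krt14, though nearer to a TSS of Krt9, with 264 and 127 counts reached 1.53 by the same count. Those 2 regions, with the Krt6a region at 5.8 kb, the Krt14 TSS and the Krt18 region at 2.6 kb, were the 5 that were at least 2-fold higher.

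Basal and luminal keratins were open in the same nuclei. To compare nuclei of unequal depth, each was thinned to 20000 counts, which left out 263 DOX and 297 EtOH nuclei below that depth, and regions in the windows of a basal and a luminal keratin were not used. Outside the immune-like clusters 1309 of 1529 DOX nuclei (85.6%, 83.8 to 87.3%) and 1966 of 2525 EtOH nuclei (77.9%, 76.2 to 79.5%) then had at least 1 count at a basal and 1 at a luminal keratin. The difference followed the basal keratins, which had a count in 87.4% of DOX and 81.1% of EtOH nuclei, against 97.4% and 96.2% for the luminal ones. Without thinning the shares with both were 86.6% and 85.9%, at median depths of 74192.5 counts per nucleus in DOX and 69164.5 in EtOH. In immune-like nuclei, which should lack keratins, the thinned shares were 7.32% (5.91 to 8.93%) in DOX and 5.56% (3.07 to 9.15%) in EtOH, and their median depths before thinning were 75479 and 53162 counts for all of them. With at least 3 counts of each kind the shares were 41.7% and 30.4%, against 0.166% and 0.794% in immune-like nuclei.

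The share with both kinds was close to the product of the separate shares, 85.2% in DOX and 78.1% in EtOH. Since nearly all these nuclei had a luminal count, the share could not lie far from the product whatever the dependence. With at least 3 counts of each kind, where 80.2% of nuclei in each library passed for the luminal keratins, observed over product was 0.998 in DOX and 0.974 in EtOH. By cluster, 87.3% of cluster 2 nuclei of DOX and 77.8% of EtOH luminal progenitor-like nuclei had both kinds. In nuclei of clusters 4 and 5 80.5% of 195 DOX nuclei (74.2 to 85.8%) and 76.7% of 952 EtOH nuclei (73.9 to 79.3%) had both, and these intervals overlapped. In cluster 7 the shares were 87.0% of 77 and 86.2% of 130 nuclei. A count in a window shows open chromatin and not expression, and without the 5% of nuclei with the highest doublet scores the shares outside the immune-like clusters were 85.3% and 77.4%.

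For single pairs of genes the same was seen. Krt14 and Krt8, on regions in the window of 1 member only, both had a count in 49.2% of DOX nuclei (46.6 to 51.7%) and 37.4% of EtOH nuclei (35.5 to 39.3%), where the products were 49.3% and 37.9%. Krt8 and Krt18, partners in one filament, had 58.5% and 50.5%, where the products were 57.2% and 48.7%. Over the 16 basal-luminal pairs the median of observed over product was 0.996 in both libraries, over the 6 luminal-luminal pairs 1.03 in DOX and 1.04 in EtOH, and over the 6 basal-basal pairs 1.05 and 1.06. The lowest basal-luminal value in EtOH was 0.913, and Krt14 with Krt7 stood at 0.915 (23.2% against a product of 25.3%). By cluster in EtOH, Krt14 with Krt7 was at 1.03 in luminal progenitor-like nuclei, 0.943 in clusters 4 and 5 and 1.01 in cluster 7. Krt14 had a count in 60.2% of the luminal progenitor-like nuclei and Krt7 in 37.6%. In clusters 4 and 5 these shares were 33.5% and 68.5%. How far the value of 0.915 reflects these unequal shares was not tested. In cluster 7 of EtOH, Krt14 with Krt8 was at 1.10. Pairs with Krt15 rest on its 1 region of its own, which is nearer to a TSS of Krt13, with counts in 1.24% of DOX and 2.81% of EtOH nuclei. The regions over the TSS of Krt15 and of Krt19 lie in both windows and were not used for pairs. The lowest basal-basal values, 0.355 in DOX and 0.272 in EtOH, were those of Krt17 with Krt15 and rest on few nuclei.

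**Figure D4:**
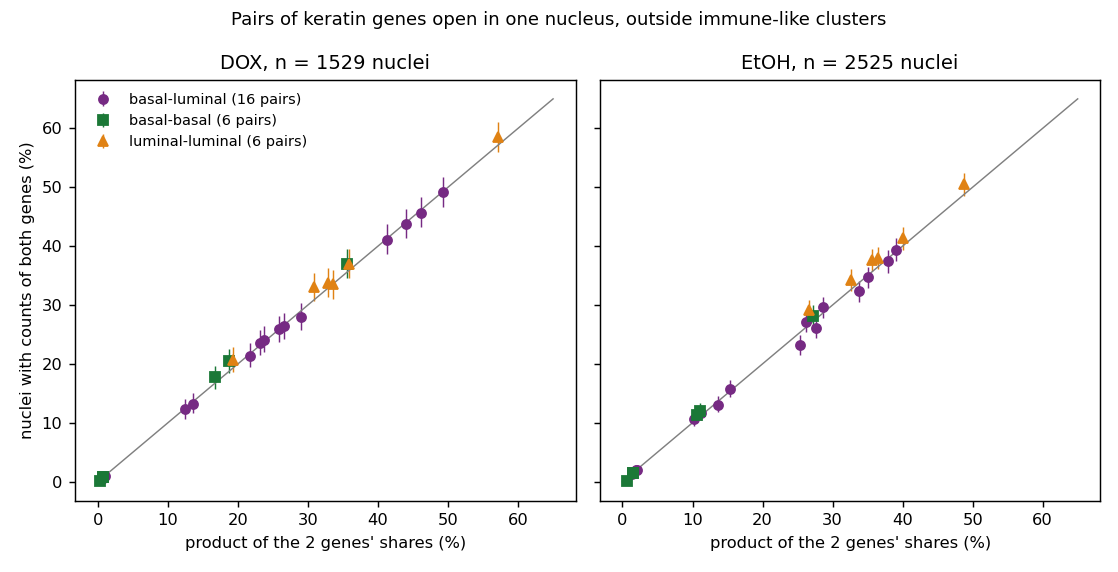
Share of nuclei outside the immune-like clusters with counts of both genes of a pair (y axis, %) against the product of the shares of the 2 genes (x axis, %), for 28 pairs in each library after thinning to 20000 counts; bars are 95% Clopper-Pearson intervals and the line is equality. Basal-luminal pairs lie along the line, with a median of observed over product of 0.996 in both libraries, and luminal-luminal pairs lie slightly above it at 1.03 and 1.04.

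The basal share of keratin counts describes the balance within a nucleus. Summed outside the immune-like clusters it was 36.5% in DOX (36.0 to 37.1%) and 30.5% in EtOH (30.1 to 31%). In nuclei with at least 20 keratin counts the median was 35.5% in DOX (quartiles 25 and 46.5%, 1159 nuclei) and 28.6% in EtOH (17.6 and 40.9%, 1688 nuclei). The quartiles of each library lay further apart than the 2 medians. At so few counts per nucleus this spread includes counting error, and its part was not computed. In cluster 7 the medians were 62.3% and 64.5%, and in cluster 5 they were 20.0% in both. Cluster 4 differed, with 29.8% in DOX (98 nuclei) and 20.4% in EtOH (397 nuclei), but 24.1% (37 nuclei) and 20.0% (394 nuclei) for those that stayed in the set at resolution 1. Cluster 2 of DOX had a median of 36.0% and the EtOH luminal progenitor-like nuclei one of 34%. These last 2 values stand side by side, since hardly any nuclei of the other library were in either cluster.

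**Figure D5:**
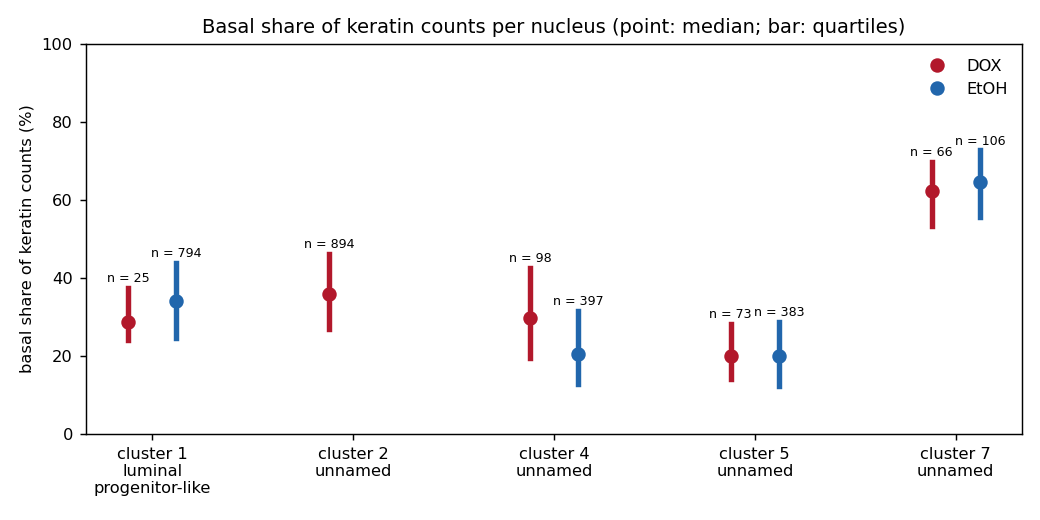
Basal share of keratin counts per nucleus in %, in nuclei with at least 20 keratin counts, by cluster and library; points are medians, bars run from the lower to the upper quartile, and n is the number of nuclei. Cluster 7 lies at 62.3% in DOX and 64.5% in EtOH, cluster 5 at 20.0% in both, and cluster 4 at 29.8% in DOX and 20.4% in EtOH.

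Of 14 other epithelial keratins, 12 were lower and 2 were within the interval over all nuclei, with a median log2 ratio of -0.34. Of all gene windows, 33.2% were lower and 47.8% higher by the same rule. Of the 14 keratins 3 were at least 2-fold lower and 0 at least 2-fold higher, where 1.44% and 2.82% of all windows were. Among the 3 were Krt4 and Krt13, which form the filament pair of mucosal stratified epithelia. Krt13 had 325 and 1254 counts (log2 ratio -2.03, -2.29 to -1.78), Krt78 had 763 and 1987 (log2 ratio -1.46, -1.64 to -1.29) and Krt4 had 3014 and 6091 (log2 ratio -1.10, -1.19 to -1.01). Krt13 was among the 10 genes that led cluster 5 by fold. Without immune-like nuclei these 3 stayed lower, at -1.61, -1.16 and -0.62, and of the 14 genes 3 were higher, 4 lower and 7 within. Among all windows outside the immune-like clusters 26.4% were higher and 30.0% lower. Of 16 genes for desmosome, hemidesmosome and plakin proteins, which anchor keratin filaments, 15 were lower and 1 was within over all nuclei (median -0.38). The lowest were the desmosomal cadherins Dsg2 (-0.75, -0.81 to -0.68) and Dsc3 (-0.69, -0.89 to -0.50), and the highest were Pkp4 (-0.08, -0.11 to -0.05) and the hemidesmosomal Col17a1, which was within (0.00, -0.07 to 0.07). Without immune-like nuclei 5 of the 16 were higher, 9 lower and 2 within, with Col17a1 at 0.37 and Dsg2 at -0.19. The shares of all windows given above beside the other keratins apply to these 16 genes too.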

How the data were processed

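The authors deposited, for each library, whole-number counts of transposition events in every peak of every nucleus, with the peak coordinates and the barcodes. Per the file headers these counts came from Cell Ranger ATAC 2.0.0, while the study's methods name an earlier version, and the submitters' processing notes name mm10. For this assay, wild-type animals are named in one figure legend, whereas the sample labels give the shRNA genotype; the labels were followed. Peaks had been called in each library alone and hold no score. A fragment gives 2 counts, so counting intervals were computed on counts divided by 2. The members and gene lists were chosen with earlier results of these data known.

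Overlapping peaks of both libraries (1 bp or more) were joined into regions with bedtools 2.31.1. Shared regions held 94.7% (DOX) and 94.8% (EtOH) of the counts, and 69 and 61 peaks on scaffolds were left out. Genes were those of GENCODE M21. Ratios carry exact conditional binomial intervals, CPM exact Poisson intervals and shares Clopper-Pearson intervals. The ratio intervals and the thinning of nuclei were tested on simulated data. Intervals and floors cover counting error only.

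Nuclei were clustered, on unthinned counts, by TF-IDF, singular value decomposition with 30 components (scikit-learn 1.9.0), a graph of 15 neighbours and the Leiden algorithm (leidenalg 0.10.2, resolution 0.5). A cluster was named from fixed marker lists where a list's median log2 fold reached 0.4 and led by 0.15; clusters 4 and 5 met this but stayed unnamed because of their leading genes. A resolution of 1 was tried. Only for the shares of nuclei with counts of several keratins were nuclei thinned, at random without replacement. No doublets were removed; removing the 5% of nuclei with the highest simulated-doublet scores was tried. Named genes were the 8 keratins; other keratins and anchors at least 2-fold apart, or the 2 highest and 2 lowest; regions at least 2-fold apart with at least 100 counts, and each gene's main promoter region; and the 5 genes most correlated with each keratin mean.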

Additional observations from a re-analysis of the deposited data

Results flagged for a closer look

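Krt14 had ratios of opposite sign in different kinds of nuclei, each beyond its counting interval. Its log2 ratio (DOX over EtOH) reached 0.82 in nuclei of clusters 4 and 5 and 0.99 in immune-like nuclei, where its level was under 1 CPM per kb, but -0.59 in luminal progenitor-like nuclei, of which DOX had 57. Krt7 showed the opposite order, with 0.37 in luminal progenitor-like and -0.31 in nuclei of clusters 4 and 5. In the like clusters at resolution 1 Krt14 was at 0.38 and Krt7 at -0.23. With 1 library per group these differences between kinds of nuclei were not tested.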

How the results depend on the processing

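No paired analysis was possible because there was only 1 library per group. The median log2 ratio was -0.27 for the basal and -0.70 for the luminal keratins. Outside the immune-like clusters the basal median was 0.29 and the luminal -0.17, in clusters 4 and 5 they were 0.13 and -0.15, and in the like clusters at Leiden resolution 1 they were 0.13 and 0.013, the last 2 settings being added after seeing the data. Setting the median ratio of shared regions to 0 gave -0.15 and -0.58, and promoters alone -0.56 and -0.57. Regions nearest to the member's own TSS gave a luminal median of -0.60, and peaks overlapping over 75% of the region, added after seeing the data, a basal median of -0.18.
Krt14 turned positive when centred on the median region (0.043), with promoters alone (0.11), with each library's own peaks (0.025), outside the immune-like clusters (0.47) and in nuclei of clusters 4 and 5 (0.82). Outside the immune-like clusters Krt6a (0.10), Krt8 (0.066) and Krt18 (0.24) turned positive too, as did Krt18 in clusters 4 and 5 (0.064). At resolution 1 Krt14 (0.38), Krt8 (0.082) and Krt18 (0.24) were positive in the like clusters. The cause of these changes was not tested. Of 88 alternative values for single keratins, 38 stayed within the counting interval, 38 moved beyond it with the same sign and 12 moved to the other sign. Of the 38 within it, Krt17 without the highest doublet scores (-0.013) was on the other side of 0.
The shares of nuclei with both kinds of keratin, 85.6% in DOX and 77.9% in EtOH, became 41.7% and 30.4% with at least 3 counts, 62.1% and 52.7% when thinned to 10000 counts, 51.1% and 71.3% over all nuclei of at least 20000 counts, and 41.9% and 33.1% with promoters alone. For EtOH they became 85.9% without thinning and 82.9% with Krt15 and Krt19 regions given to the nearest TSS. The order of the libraries turned only there, with immune-like nuclei counted. The other 16 of 38 alternative values for medians and shares stayed within the counting interval of the value reported.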
